A study of Homo sapiens with 21 samples.

Results

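The genes described here are the 8 E2F transcription factor genes, E2F1 to E2F8, and the 2 E cyclin genes, CCNE1 and CCNE2, in NLF, a human neuroblastoma cell line. They were chosen by symbol, which matched 10 of the 57820 genes of the expression table, and all 10 were among the 16092 genes tested after a filter on low values. RNA was measured by sequencing of total RNA in 21 libraries, 3 for each of 7 groups. YAPKO2 and YAPKO1 are NLF lines in which YAP1, the coactivator that the Hippo pathway restrains, was knocked out with CRISPR-Cas9, and sgCON is NLF carrying Cas9 with a scrambled guide. Each of these lines was grown in trametinib, an inhibitor of the MEK kinases of the RAS pathway, at 20 nM for 72 h, or in its solvent DMSO, and parental NLF cells, labelled as in DMSO, form the last group. Whether a line is 1 clone or a pool is not given in the sources used here. The solvent is stated as 0.01% DMSO sample by sample, but as 0.1% in the design text. The question put by the series is whether YAP modulates resistance to trametinib.

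E2F factors bind DNA mostly as dimers with a DP protein and set the transcription of genes for S phase. In G1 the pocket proteins RB1, RBL1 and RBL2 hold them in a repressing state. Cyclin D and cyclin E kinases phosphorylate the pocket proteins, which frees the activating factors, and since the E cyclin genes are themselves E2F targets, the circuit feeds itself. E2F1, E2F2 and E2F3 are the activators. E2F4 and E2F5 work mainly with RBL1 and RBL2 in repression, E2F6 represses without a pocket protein, and E2F7 and E2F8 are repressors that bind without a DP partner. Cyclin E, with CDK2, drives entry into S phase. RAS and MEK signalling acts on this circuit from above, through cyclin D.

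Values are FPKM, read fragments corrected for transcript length and library total, as the authors deposited them, scaled further between libraries. Changes are log2 ± SE from limma on log2(FPKM + 0.5), with two-sided tests, and calls were made where the p adjusted over all genes tested (Benjamini-Hochberg) was under 0.05. FPKM hold no counts, so the depth behind each value is unknown. The labels do not tell whether the 3 replicates of a group were grown apart. The p-values therefore set a difference against the spread of these libraries, and that spread may be technical. In RNA from whole cultures, fewer cells in a cell cycle phase and less RNA per cell cannot be told apart.

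The promoters of the activators and of CCNE1 are shown because all 3 activators responded differently to trametinib in YAPKO2 and sgCON and because E2F genes are known to be under E2F control. They run from 250 bases before to 50 after the RefSeq start site in GRCh38.p14, each on the strand of its gene. Promoters of 7 of the 10 members are used here. Capitals mark 2 E2F-like spellings searched on both strands, TTTNGCG, where N is any base, and TTTCCCGC. Neighbouring matches may overlap, and other forms of the E2F consensus were not searched.
E2F1, chr20:33686336-33686635, minus strand: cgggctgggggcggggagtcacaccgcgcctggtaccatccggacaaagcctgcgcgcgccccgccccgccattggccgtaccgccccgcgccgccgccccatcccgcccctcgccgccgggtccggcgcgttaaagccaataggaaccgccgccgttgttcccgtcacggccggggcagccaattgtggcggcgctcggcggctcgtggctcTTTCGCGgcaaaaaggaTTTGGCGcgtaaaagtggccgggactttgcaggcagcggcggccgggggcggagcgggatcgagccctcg
E2F2, chr1:23531184-23531483, minus strand: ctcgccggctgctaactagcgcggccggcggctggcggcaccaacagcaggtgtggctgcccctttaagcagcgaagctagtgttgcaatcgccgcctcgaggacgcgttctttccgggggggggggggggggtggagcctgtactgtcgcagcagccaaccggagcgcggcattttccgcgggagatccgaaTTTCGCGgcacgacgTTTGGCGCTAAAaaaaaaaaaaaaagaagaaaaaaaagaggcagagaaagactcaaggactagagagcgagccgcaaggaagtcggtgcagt
E2F3, chr6:20401629-20401928, plus strand: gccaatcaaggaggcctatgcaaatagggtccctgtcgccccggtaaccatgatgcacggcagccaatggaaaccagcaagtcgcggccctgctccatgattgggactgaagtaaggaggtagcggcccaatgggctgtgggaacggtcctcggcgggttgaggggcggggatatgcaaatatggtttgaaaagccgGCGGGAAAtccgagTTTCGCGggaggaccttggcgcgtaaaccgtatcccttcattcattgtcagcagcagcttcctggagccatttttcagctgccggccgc
CCNE1, chr19:29811741-29812040, plus strand: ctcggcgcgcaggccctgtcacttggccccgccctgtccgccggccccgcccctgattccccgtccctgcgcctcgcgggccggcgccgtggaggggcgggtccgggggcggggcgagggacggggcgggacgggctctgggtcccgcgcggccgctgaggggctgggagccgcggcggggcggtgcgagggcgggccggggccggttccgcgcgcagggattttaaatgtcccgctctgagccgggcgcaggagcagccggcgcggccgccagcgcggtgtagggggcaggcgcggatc

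E2F1 held TTTNGCG at -37 and -20 from its start site, and E2F2 held it 3 times, at -57, -42 and -37, the last on the other strand and overlapping its neighbour. E2F3 held TTTNGCG at -39 and TTTCCCGC at -53 on the other strand, while the promoter at its second start held neither. Of the promoters not printed, E2F7 held TTTNGCG at -9 and E2F4 at -101, and E2F6 held neither spelling. CCNE1 held neither in this window. Promoters of E2F5, E2F8 and CCNE2 are not described. E2F8 had no entry among the promoters available, while E2F5 and CCNE2 were left out of the set used, so their motifs are not reported. Over all 35116 promoters of the table, 5.14% held TTTNGCG, 1.63% TTTCCCGC and 6.62% either. These matches are descriptions of letters, searched for after the promoters had been seen, and not measured sites of binding.

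YAP1 RNA, the check of the line labels, was 2.73, 1.16 and 3.69 FPKM in YAPKO2 in trametinib and 3.17, 2.69 and 2.81 in YAPKO2 in DMSO. It was 12.5, 11.9 and 10.1 in YAPKO1 in trametinib and 13.2, 12.9 and 9.06 in YAPKO1 in DMSO. In sgCON it was 22.7, 24.5 and 22.7 in trametinib and 25, 24.2 and 27.7 in DMSO. The knockout lines were thus below sgCON in every library, and YAPKO2 was below YAPKO1. Among neuroblastoma markers, HAND2, GATA3 and MYCN were expressed, whereas TH was at or near 0 and DBH was low. The 10 markers summed to 532 to 721 FPKM in YAPKO2 in trametinib, 498 to 551 in YAPKO2 in DMSO, 483 to 557 in YAPKO1 in trametinib, 460 to 606 in YAPKO1 in DMSO, 341 to 367 in sgCON in trametinib, 331 to 349 in sgCON in DMSO and 273 to 292 in parental cells. Of 9 measured, 5 rose and 1 fell with trametinib in YAPKO2 (limma), among 8.59% and 11.5% of all genes. In trametinib, 6 were higher and 0 lower in YAPKO2 than in sgCON, among 17.7% and 18.6% of all genes. The part of these markers in the results was not tested. Of other cell types, the 6 epithelial markers summed to at most 2.53 FPKM, with CDH1 and KRT14 at 0, and 1 of them, CLDN4, passed the filter and was lower in both knockout lines than in sgCON in DMSO (-1.30 in YAPKO2 and -1.20 in YAPKO1). The 6 blood and endothelial markers in the table summed to at most 0.776 and the 6 Schwann cell markers to at most 5.83. The 6 genes of the fibroblast list, expressed in these lines, summed to 200 to 345 FPKM in YAPKO2 in trametinib, 381 to 615 in YAPKO2 in DMSO, 184 to 265 in YAPKO1 in trametinib, 219 to 493 in YAPKO1 in DMSO, 457 to 583 in sgCON in trametinib, 436 to 522 in sgCON in DMSO and 836 to 905 in parental cells, and their part in the results was not tested.

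Libraries also differed in how their values ran with the GC content of the transcript. The GC trend is here, for each library, the median log2 deviation of genes above 56.6% GC minus that of genes under 41.7% GC, the upper and lower quartiles. It was 0.70, 1.34 and -0.25 in YAPKO2 in trametinib, 0.09, 0.62 and 0.17 in YAPKO2 in DMSO, 0.38, -0.07 and 0.52 in YAPKO1 in trametinib, and -0.40, -0.22 and 0.68 in YAPKO1 in DMSO. In sgCON it was -0.15, -0.28 and -0.15 in trametinib and -0.40, -0.48 and -0.38 in DMSO, and in parental cells -0.60, -0.59 and -0.55. In 4 groups the library farthest from the median of its group was over 0.4 from it, namely replicate 3 of YAPKO2 in trametinib, replicate 2 of YAPKO2 in DMSO, replicate 2 of YAPKO1 in trametinib and replicate 3 of YAPKO1 in DMSO. Replicate 2 of YAPKO2 in trametinib, the highest of the series, was also over 0.4 from its median. The members' tests below were therefore also run without the farthest library of those 4 groups, with replicate 2 of YAPKO2 in trametinib kept there and left out in a fit of its own, and with a spline on transcript GC content taken out of every library. The gene lists were also counted with the spline.

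E2F1 had its lowest levels in YAPKO2 in trametinib. Its FPKM there was 31.6, 34.9 and 22.2, against 46.2, 49.7 and 42.4 in YAPKO2 in DMSO. All 3 trametinib libraries were below the 3 in DMSO, and E2F1 fell by 0.66 ± 0.14 on the log2 scale (adjusted p = 0.0027). YAPKO1 had 43.9, 44.7 and 51.8 in trametinib and 45.1, 40.8 and 56.3 in DMSO, and sgCON had 47.0, 45.5 and 44.2 in trametinib and 39.6, 42.1 and 40.5 in DMSO. In those 2 lines E2F1 was not called, and in YAPKO1 the ranges of trametinib and DMSO overlapped. Parental cells had 43.6, 43.7 and 41.7. Ranked by mean, the groups ran YAPKO1 DMSO, YAPKO1 trametinib, YAPKO2 DMSO, sgCON trametinib, parental, sgCON DMSO and YAPKO2 trametinib; the range of each group overlapped that of the next except between sgCON trametinib and parental and between sgCON DMSO and YAPKO2 trametinib.

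E2F2 was moved most by trametinib among the E2F genes of YAPKO2. It had 14.7, 16.5 and 10.4 FPKM in YAPKO2 in trametinib, against 25.7, 29.4 and 24.8 in YAPKO2 in DMSO. With no overlap, this was a fall by 0.94 ± 0.14 on the log2 scale (adjusted p = 0.00012). YAPKO1 had 17.6, 16.6 and 18.0 in trametinib and 21, 19.7 and 23.9 in DMSO, a log2 difference of -0.30 ± 0.14 that was not called (adjusted p = 0.222). sgCON had 18.7, 20.2 and 21.1 in trametinib and 14.2, 16.3 and 16.8 in DMSO, a log2 difference of 0.34 ± 0.14 that was also not called (adjusted p = 0.201). The ranges did not overlap in any of the 3 lines, but sgCON stood higher in trametinib where both knockout lines stood lower. In DMSO, E2F2 rose in YAPKO2 against sgCON by 0.74 ± 0.14 (adjusted p = 0.000823) and in YAPKO1 against sgCON by 0.44 ± 0.14 (adjusted p = 0.046), and the call in YAPKO1 was lost without any 1 of the 6 libraries (adjusted p = 0.0544 to 0.175). Parental cells had 11.7, 14.3 and 13.4, overlapping with YAPKO2 in trametinib.

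E2F3 had 8.12, 6.68 and 8.47 FPKM in YAPKO2 in trametinib, against 12.4, 11.2 and 10.4 in YAPKO2 in DMSO. It fell by 0.52 ± 0.11 on the log2 scale (adjusted p = 0.00379), with no overlap. YAPKO1 had 9.55, 10.9 and 9.27 in trametinib and 12.4, 10.7 and 10.7 in DMSO, and sgCON had 14.2, 14.6 and 13.5 in trametinib and 12.8, 12 and 12.1 in DMSO. Neither line was called for E2F3, although the 3 trametinib values of sgCON all lay above its DMSO values. In trametinib E2F3 was lower than in sgCON in both knockout lines, by -0.83 ± 0.11 in YAPKO2 (adjusted p = 3.11e-05) and -0.49 ± 0.11 in YAPKO1 (adjusted p = 0.00768). Parental cells had 12.4, 13.8 and 16.1, overlapping with sgCON in trametinib. TTTNGCG stands in the promoters of all 3 activators printed above and TTTCCCGC in that of E2F3, and how they bear on these levels was not tested.

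**Figure D1:**
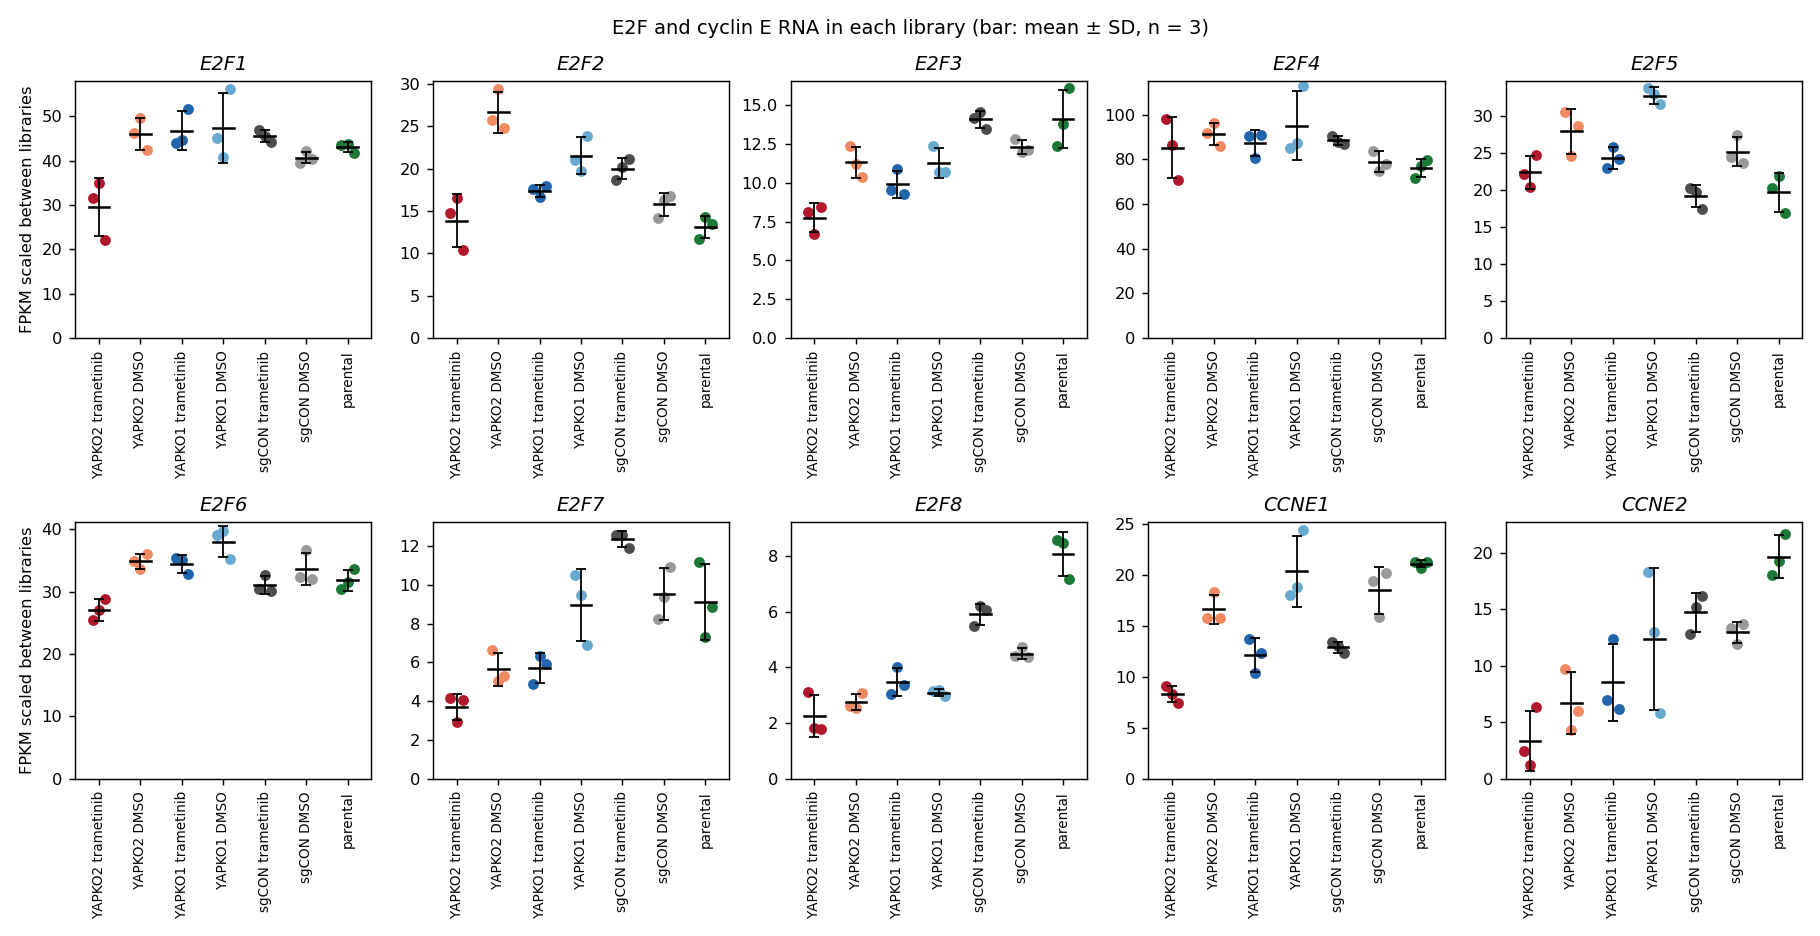
Level of each E2F and E cyclin gene in every library, in FPKM scaled between libraries on a linear axis from 0, by group; points are libraries and bars mean ± SD (n = 3). E2F1, E2F3, E2F6, E2F7, E2F8, CCNE1 and CCNE2 have their lowest mean in YAPKO2 in trametinib, and the spread of CCNE2 is wide in the knockout lines, from 5.77 to 18.3 FPKM in YAPKO1 in DMSO.

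E2F4, the most abundant member, took 44.2% ± 3.02 of the summed FPKM of the 8 E2F genes in YAPKO2 in trametinib, 37.0% ± 0.957 in YAPKO2 in DMSO and 35.4% to 38.0% on average in the other groups (SD, n = 3). Its own level was 98.1, 86.5 and 70.8 FPKM in YAPKO2 in trametinib and 91.6, 96.1 and 86.2 in YAPKO2 in DMSO. YAPKO1 had 90.3, 80.4 and 90.9 in trametinib and 85.1, 87.2 and 113 in DMSO, and sgCON had 90.6, 87.8 and 87.0 in trametinib and 83.9, 74.9 and 78.1 in DMSO. Parental cells had 71.7, 77.1 and 79.5. The range of each group overlapped that of the next in order of mean, and E2F4 was called in none of the 15 comparisons. The ratio of E2F1 to E2F4, an activator over the main repressor-complex factor, was 32.2%, 40.3% and 31.4% in YAPKO2 in trametinib and 50.5%, 51.7% and 49.2% in YAPKO2 in DMSO. Means in the other groups ran from 49.9% to 56.7%, above all 3 libraries of YAPKO2 in trametinib.

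E2F5 was highest in YAPKO1 in DMSO. It had 22.9, 25.8 and 24.2 FPKM in YAPKO1 in trametinib, against 33.7, 32.9 and 31.5 in YAPKO1 in DMSO, and fell by 0.42 ± 0.11 on the log2 scale (adjusted p = 0.0286). That call was lost without replicate 1 or 2 in DMSO or replicate 1 or 3 in trametinib (adjusted p = 0.0832 to 0.109) and with GC content taken out (-0.27 ± 0.15, adjusted p = 0.273), and likewise with no scaling and under quantile normalization. YAPKO2 had 22.1, 20.3 and 24.7 in trametinib and 30.5, 24.5 and 28.6 in DMSO, with overlap and a log2 difference of -0.31 ± 0.11 (adjusted p = 0.0624). sgCON had 20.2, 19.7 and 17.4 in trametinib and 24.4, 27.4 and 23.6 in DMSO, without overlap and at -0.39 ± 0.11 (adjusted p = 0.0577). The 3 lines thus had differences between -0.31 and -0.42 on the log2 scale, of which 1 was called. Parental cells had 20.2, 21.9 and 16.8, below YAPKO1 in DMSO by a log2 difference, YAPKO1 over parental, of 0.73 ± 0.11 (adjusted p = 0.000143).

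E2F6, which represses germline genes with polycomb proteins, had 25.4, 27.0 and 28.9 FPKM in YAPKO2 in trametinib, against 35.0, 33.7 and 36.1 in YAPKO2 in DMSO. This was a fall by 0.36 ± 0.08 on the log2 scale (adjusted p = 0.00531), and these 3 libraries lay below all others in the series. YAPKO1 had 35.4, 35.1 and 32.8 in trametinib and 39.1, 39.8 and 35.3 in DMSO, sgCON had 30.5, 32.7 and 30.1 in trametinib and 32.3, 36.7 and 32.0 in DMSO, and parental cells had 30.4, 31.5 and 33.7. In YAPKO1 and sgCON the ranges overlapped and E2F6 was not called. Of 6 germline genes known as E2F6 targets 1 passed the filter, STAG3, which was not called with trametinib in YAPKO2 (0.37 ± 0.18, adjusted p = 0.167). STAG3 rose with trametinib in YAPKO1 by 0.65 ± 0.18 (adjusted p = 0.035) and was lower in YAPKO1 than in sgCON in DMSO (-0.78 ± 0.18, adjusted p = 0.00896). With GC content taken out the rise was not called (0.58), while the lower level in DMSO was (-0.87). STAG3 is low in these cells, since the 6 germline genes together summed to at most 4.24 FPKM in any library. Of 12 genes for partners of E2F6 in its repressor complexes, 0 rose and 2 fell with trametinib in YAPKO2, YAF2 by 0.60 ± 0.18 and WDR5 by 0.36 ± 0.12, with a median of -0.25, while 11.5% of all genes fell. With GC content taken out 5 of the 12 fell, among 15.8% of all genes.

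E2F7 and E2F8, repressors that E2F1 induces, were lower in both knockout lines than in sgCON in trametinib. E2F7 had 4.17, 2.94 and 4.04 FPKM in YAPKO2 in trametinib, 4.86, 6.35 and 5.90 in YAPKO1 in trametinib and 12.6, 12.6 and 11.9 in sgCON in trametinib. Both knockout lines lay below every sgCON library, and E2F7 was lower by -1.62 ± 0.18 in YAPKO2 (adjusted p = 2.39e-06) and by -1.06 ± 0.18 in YAPKO1 (adjusted p = 0.000553). In DMSO it had 6.63, 5.04 and 5.29 in YAPKO2, 10.5, 9.5 and 6.92 in YAPKO1 and 8.23, 9.4 and 10.9 in sgCON. YAPKO2 was lower than sgCON there (-0.70 ± 0.18, adjusted p = 0.00792), while YAPKO1 overlapped sgCON and was not called. Trametinib against DMSO gave falls by 0.55 ± 0.18 in YAPKO2 (adjusted p = 0.0378) and by 0.60 ± 0.18 in YAPKO1 (adjusted p = 0.0485). In sgCON E2F7 stood 0.37 ± 0.18 higher in trametinib, not called (adjusted p = 0.29). The fall in YAPKO2 was not called without replicate 1 or 3 in DMSO or replicate 2 in trametinib (adjusted p = 0.0669 to 0.154), and that in YAPKO1 without replicate 1 or 2 in DMSO or any of its trametinib replicates (adjusted p = 0.063 to 0.191). Both calls were also lost with no filter on low values and with no scaling.

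E2F8 was the least abundant member. It had 3.12, 1.82 and 1.79 FPKM in YAPKO2 in trametinib, 3.04, 4 and 3.37 in YAPKO1 in trametinib and 5.48, 6.19 and 6.04 in sgCON in trametinib. In DMSO it had 2.62, 2.54 and 3.08 in YAPKO2, 3.13, 3.18 and 2.96 in YAPKO1 and 4.39, 4.71 and 4.36 in sgCON. Every knockout library was below every sgCON library, and parental cells, with 8.58, 8.47 and 7.17, were above all others. Against sgCON, E2F8 was lower by -1.25 ± 0.16 in YAPKO2 in trametinib (adjusted p = 9.22e-06), by -0.69 ± 0.16 in YAPKO1 in trametinib (adjusted p = 0.00587) and by -0.62 ± 0.16 in YAPKO2 in DMSO (adjusted p = 0.00726). YAPKO1 in DMSO stood at -0.47 ± 0.16, not called (adjusted p = 0.0571). Of the 3 lines, E2F8 was called for trametinib against DMSO in none, and in sgCON it stood at 0.36 ± 0.16 (adjusted p = 0.229). Summed, E2F7 and E2F8 had 7.30, 4.77 and 5.83 FPKM in YAPKO2 in trametinib and 18.1, 18.8 and 18.0 in sgCON in trametinib.

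CCNE1, the gene for cyclin E1, was the only member called with trametinib in all 3 lines. It had 9.08, 8.36 and 7.47 FPKM in YAPKO2 in trametinib, against 15.8, 18.3 and 15.8 in YAPKO2 in DMSO. YAPKO1 had 13.7, 10.4 and 12.3 in trametinib and 18.0, 18.8 and 24.4 in DMSO, and sgCON had 13.4, 13.0 and 12.3 in trametinib and 19.4, 15.9 and 20.2 in DMSO. In each line all trametinib libraries were below all DMSO libraries. CCNE1 fell by 0.96 ± 0.13 in YAPKO2 (adjusted p = 4.38e-05), by 0.73 ± 0.13 in YAPKO1 (adjusted p = 0.00159) and by 0.50 ± 0.13 in sgCON (adjusted p = 0.0309). The call in sgCON was lost without replicate 1 or 3 in DMSO or any of the trametinib replicates (adjusted p = 0.0703 to 0.137) and under quantile normalization, whereas the fall stayed called with GC content taken out (-0.52 ± 0.09, adjusted p = 0.00138). Parental cells had 21.3, 20.7 and 21.3, above every trametinib library.

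CCNE2, the gene for cyclin E2, varied most between replicates. It had 2.44, 1.24 and 6.36 FPKM in YAPKO2 in trametinib, against 9.74, 4.32 and 5.99 in YAPKO2 in DMSO, with overlap and a log2 difference of -1.07 ± 0.43 that was not called (adjusted p = 0.0887). YAPKO1 had 6.95, 12.4 and 6.19 in trametinib and 18.3, 13.0 and 5.77 in DMSO, again with overlap. sgCON had 12.8, 15.2 and 16.2 in trametinib and 13.3, 11.9 and 13.7 in DMSO, and parental cells had 18.0, 19.3 and 21.7. Replicate 1 of YAPKO1 in DMSO was the only other library in the range of parental cells. In trametinib the 3 YAPKO2 libraries were below the 3 of sgCON, and CCNE2 was lower by -2.21 ± 0.43 (adjusted p = 0.000658), the largest difference of any member. With GC content taken out it was -1.70 ± 0.24 (adjusted p = 2.15e-05), and with the GC trend as a covariate -1.16 ± 0.16 (adjusted p = 2.6e-05). Without the farthest library in GC trend of each of 4 groups it was -2.75 ± 0.22 (adjusted p = 5.78e-07). The summed FPKM of both E cyclins was 11.5, 9.60 and 13.8 in YAPKO2 in trametinib and 25.5, 22.6 and 21.8 in YAPKO2 in DMSO, 20.6, 22.8 and 18.5 in YAPKO1 in trametinib and 36.3, 31.9 and 30.2 in YAPKO1 in DMSO, and 26.3, 28.2 and 28.5 in sgCON in trametinib and 32.7, 27.8 and 33.9 in sgCON in DMSO. In both knockout lines the sums did not overlap between trametinib and DMSO, and in sgCON they did.

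The GC trend moved with several of these levels within groups, where no treatment or line differs. As a description over the 21 libraries, which share that trend, the deviation of a member from its group mean correlated with the deviation of the GC trend at r = -0.96 for CCNE2, 0.89 for E2F1, 0.81 for E2F2, 0.79 for E2F4, 0.68 for CCNE1, -0.62 for E2F7, -0.59 for E2F5, -0.58 for E2F3, -0.56 for E2F6 and -0.12 for E2F8. CCNE2 has the transcript lowest in GC, at 36.9%, and E2F1 the highest, at 62.5%. The library of YAPKO2 in trametinib with the highest GC trend, replicate 2, had the lowest CCNE2, and the one with the lowest GC trend, replicate 3, had the highest CCNE2 and the lowest E2F1. With the spline taken out, CCNE2 was called with trametinib in YAPKO2 (-0.92 ± 0.24, adjusted p = 0.00771), E2F1 stood at -0.80 ± 0.07 (adjusted p = 2.34e-07), and E2F4 became called at -0.24 ± 0.07 (adjusted p = 0.0138).

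**Figure D2:**
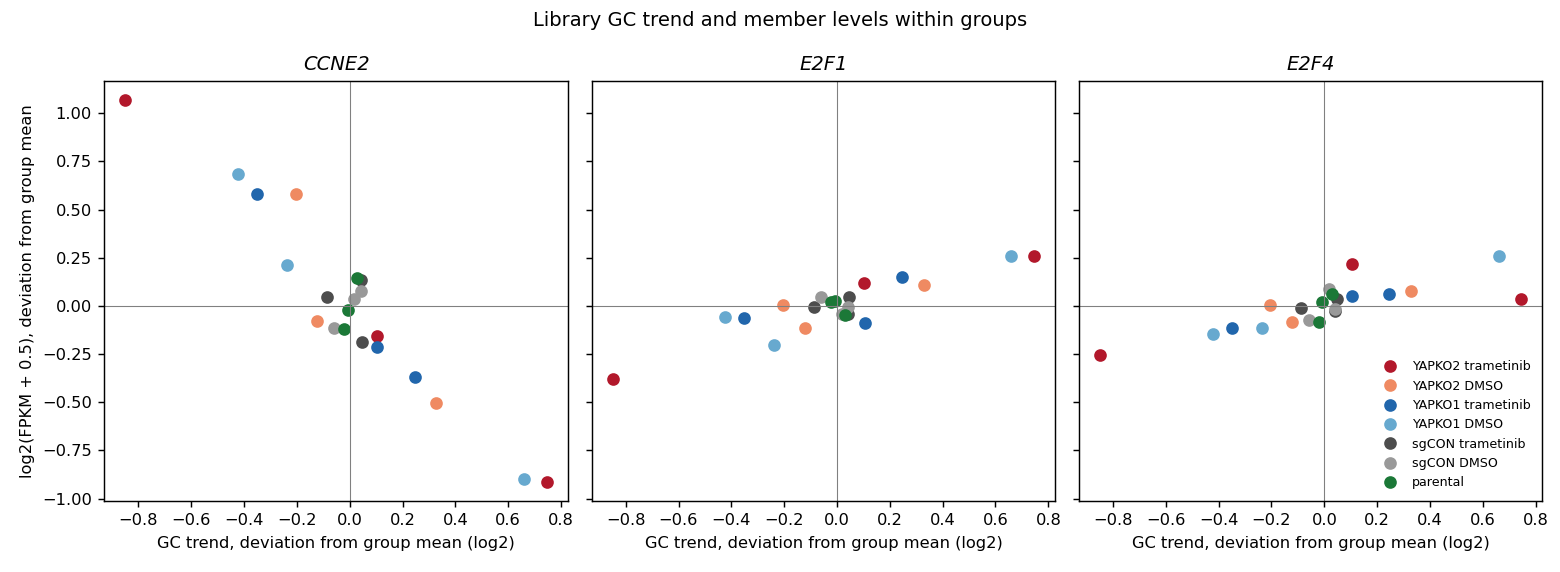
Deviation of CCNE2, E2F1 and E2F4 from their group mean, in log2(FPKM + 0.5), against the deviation of the GC trend of the library from its group mean, in log2; each point is 1 of 21 libraries. CCNE2 runs downward (r = -0.96), and E2F1 (r = 0.89) and E2F4 (r = 0.79) upward; the points farthest out are replicates 2 and 3 of YAPKO2 in trametinib and replicate 3 of YAPKO1 in DMSO.

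Trametinib against DMSO called 0 members higher and 6 lower in YAPKO2, 0 and 3 in YAPKO1 and 0 and 1 in sgCON. The 6 in YAPKO2 were E2F1, E2F2, E2F3, E2F6, E2F7 and CCNE1, the 3 in YAPKO1 were E2F5, E2F7 and CCNE1, and the 1 in sgCON was CCNE1. Of all genes tested, 8.59% were called higher and 11.5% lower in YAPKO2, 3.97% and 3.88% in YAPKO1, and 2.28% and 2.94% in sgCON. At an unadjusted p under 0.05 limma gave 0 members higher and 8 lower in YAPKO2, 0 and 4 in YAPKO1, and 2 and 2 in sgCON. The members had a median log2 difference of -0.53 in YAPKO2, -0.24 in YAPKO1 and 0.17 in sgCON, beside -0.01, -0.01 and 0 over all genes. Fitted on the 6 libraries of YAPKO2 alone, 1 member was called, and in that fit for YAPKO1 0 were (limma). Without the farthest library in GC trend of each of 4 groups 8 members were called in YAPKO2, where replicate 2 in trametinib was kept, and without that replicate alone 5 were called.

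**Figure D3:**
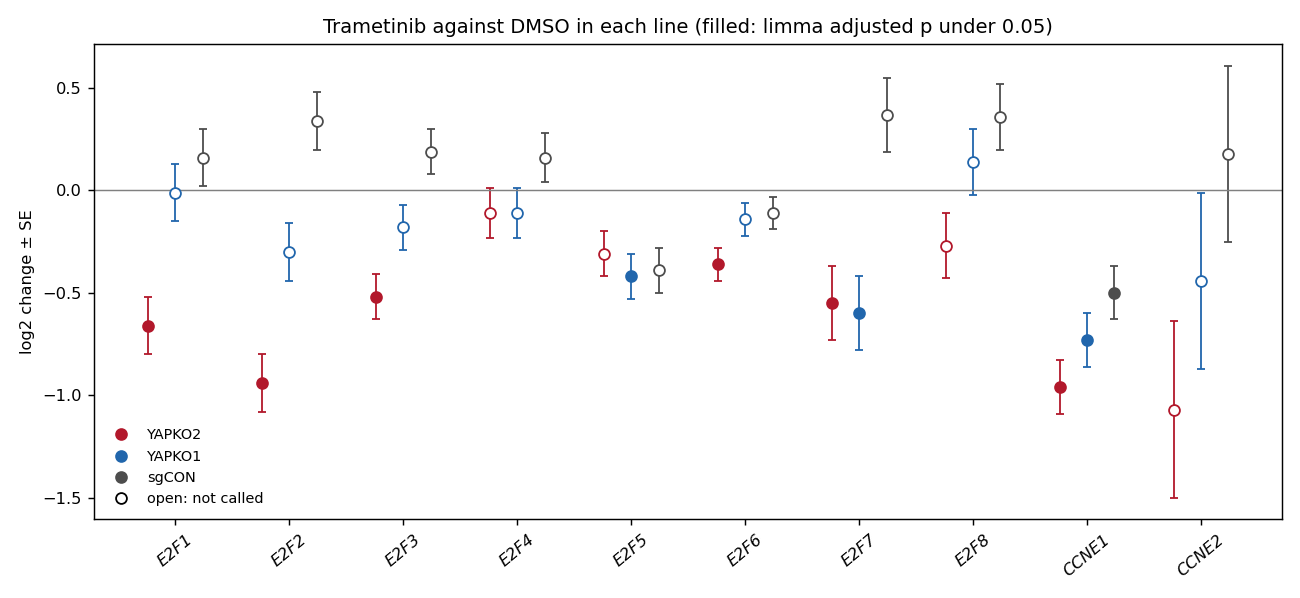
Log2 change ± SE of each member with trametinib against DMSO in YAPKO2, YAPKO1 and sgCON, from limma over 21 libraries; filled points have an adjusted p under 0.05. CCNE1 is filled in all 3 lines, at -0.96, -0.73 and -0.50, and E2F2 lies at -0.94 in YAPKO2 and at 0.34, open, in sgCON.

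Whether the response differed between lines was tested as a difference of differences. The response of YAPKO2 minus that of sgCON was called lower for 4 members and higher for 0, among 3.03% of all genes called lower and 1.8% called higher. These were E2F2 at -1.27 ± 0.20 (adjusted p = 0.000783), E2F7 at -0.92 ± 0.25 (adjusted p = 0.0437), E2F1 at -0.82 ± 0.20 (adjusted p = 0.0216) and E2F3 at -0.71 ± 0.16 (adjusted p = 0.0165), on the log2 scale. So all 3 activators responded differently in YAPKO2 and sgCON, while for CCNE1 the difference was -0.47 ± 0.18 and not called (adjusted p = 0.185). The call for E2F1 was lost without replicate 1 of sgCON in DMSO, replicate 1 of sgCON in trametinib or replicate 2 of YAPKO2 in DMSO (adjusted p = 0.0537 to 0.0629). That for E2F7 was lost without any 1 of 9 of the 12 libraries, all but replicate 3 of sgCON in DMSO and replicates 1 and 3 of YAPKO2 in trametinib (adjusted p = 0.0591 to 0.119).

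Set against the same sgCON libraries, the response of YAPKO1 was called different for 0 members in either direction by limma, among 0.199% of all genes called higher and 0.0497% lower. At an unadjusted p under 0.05 it was lower for 3 members and higher for 0, with E2F7 at -0.97 ± 0.25 (adjusted p = 0.174) and E2F2 at -0.64 ± 0.20 (adjusted p = 0.288). With GC content taken out both were called, at -0.97 ± 0.20 (adjusted p = 0.0275) and -0.69 ± 0.12 (adjusted p = 0.0113). The response of YAPKO2 minus that of YAPKO1 likewise gave 0 calls by limma, among 0.217% higher and 0.59% lower, and 0 members higher and 2 lower at an unadjusted p under 0.05. Those were E2F1 at -0.65 ± 0.20 (adjusted p = 0.189) and E2F2 at -0.64 ± 0.20 (adjusted p = 0.199), and both were called with GC content taken out, at -0.67 ± 0.10 (adjusted p = 0.00137) and -0.64 ± 0.12 (adjusted p = 0.00906).

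Between lines in the same medium, the comparisons of both knockout lines share the sgCON libraries. In trametinib, YAPKO2 against sgCON called 0 members higher and 7 lower, among 17.7% and 18.6% of all genes. The 7 were E2F1 (-0.64 ± 0.14, adjusted p = 0.00168), E2F2 (-0.53 ± 0.14, adjusted p = 0.00625), E2F3, E2F7, E2F8, CCNE1 (-0.61 ± 0.13, adjusted p = 0.0014) and CCNE2, with values given above for the other members. Fitted on those 6 libraries alone, the calls for E2F1 (adjusted p = 0.0629) and E2F2 (adjusted p = 0.108) were lost. YAPKO1 against sgCON called 0 higher and 3 lower, E2F3, E2F7 and E2F8, among 7.81% and 7.18% of all genes. At an unadjusted p under 0.05, limma gave 0 higher and 8 lower for YAPKO2 and 1 higher and 3 lower for YAPKO1. The members' median was -0.63 for YAPKO2 and -0.15 for YAPKO1, beside -0.02 and 0 over all genes. In DMSO, YAPKO2 against sgCON called 1 member higher, E2F2, and 2 lower, E2F7 and E2F8, among 14.1% and 13.1% of all genes. YAPKO1 against sgCON called 2 higher, E2F2 and E2F5, and 0 lower, among 6.18% and 5.81%, with 4 higher and 1 lower at an unadjusted p under 0.05. E2F5 in YAPKO1 in DMSO stood 0.38 ± 0.11 above sgCON (adjusted p = 0.0383), a call lost without replicate 1 or 3 of sgCON or any replicate of YAPKO1 (adjusted p = 0.0654 to 0.137).

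**Figure D4:**
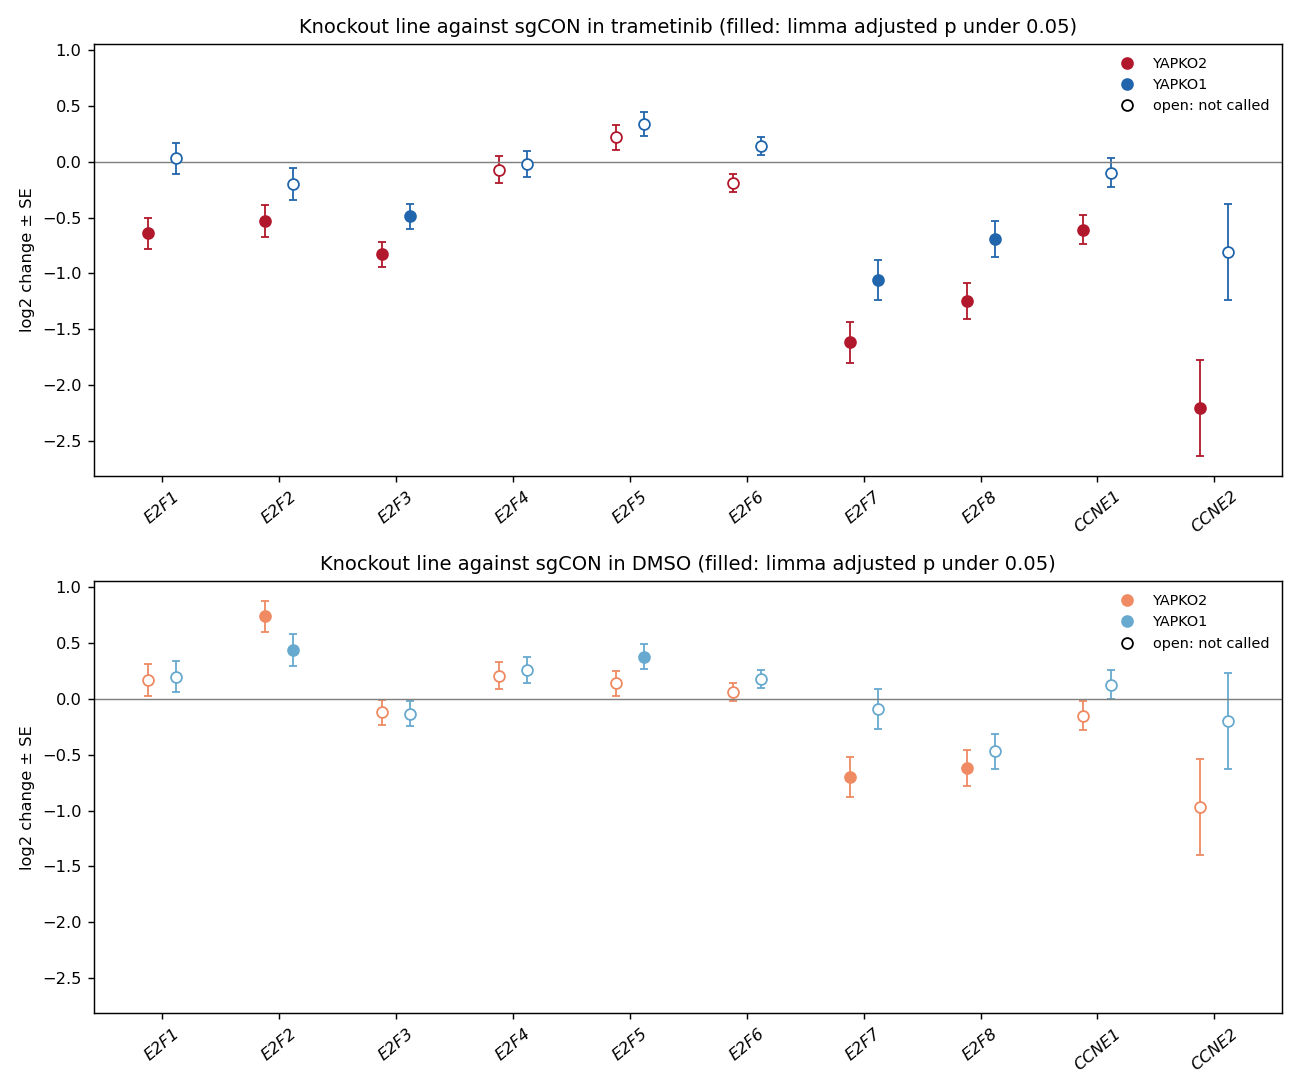
Log2 change ± SE of each member in YAPKO2 and YAPKO1 against sgCON, in trametinib in the upper panel and in DMSO in the lower, from limma; filled points have an adjusted p under 0.05. CCNE2 in YAPKO2 in trametinib lies lowest, at -2.21, and in DMSO E2F2 is filled above 0 in both lines, at 0.74 in YAPKO2 and 0.44 in YAPKO1.

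YAPKO2 against YAPKO1 in trametinib called 0 members higher and 6 lower by limma, among 6.48% and 7.69% of all genes, and at an unadjusted p under 0.05 these were 0 and 8. Fitted on those 6 libraries alone, 0 members were called. E2F1 stood at -0.68 ± 0.14 (adjusted p = 0.00281), E2F6 at -0.34 ± 0.08 (adjusted p = 0.0103) and CCNE1 at -0.51 ± 0.13 (adjusted p = 0.0116). E2F7, E2F8 and CCNE2 were called as well, at -0.56 ± 0.18, -0.56 ± 0.16 and -1.40 ± 0.43, and each of these calls was lost without at least 1 library: E2F7 without replicates 2 or 3 of YAPKO1 or 1 or 2 of YAPKO2 (adjusted p = 0.0532 to 0.175), E2F8 without replicate 2 of YAPKO1 or 2 or 3 of YAPKO2 (0.0572 to 0.105), and CCNE2 without replicates 1 or 2 of either line (0.0618 to 0.172). Without the farthest library in GC trend of each of 4 groups, E2F7 (adjusted p = 0.0607) and E2F8 (adjusted p = 0.173) were not called. The call for E2F6 was lost without replicate 1 of YAPKO2 (adjusted p = 0.0562) and that for CCNE1 without replicate 1 of YAPKO1 (adjusted p = 0.0667). In DMSO, YAPKO2 against YAPKO1 called 0 higher and 1 lower, E2F7 at -0.61 ± 0.18 (adjusted p = 0.0468), among 3.73% and 3.23%, with 1 higher and 2 lower at an unadjusted p under 0.05. That call was lost without replicate 1 or 2 of YAPKO1 or 2 or 3 of YAPKO2 (adjusted p = 0.144 to 0.209).

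Against parental cells, whose culture time is uncertain because the design text names the treatment for the other lines only, sgCON in DMSO had 1 member higher and 1 lower, among 7.99% and 7.87% of all genes. E2F8 was lower by -0.78 ± 0.16 (adjusted p = 0.00223), and E2F5 higher by 0.36 ± 0.11 (adjusted p = 0.0406), a call lost without replicate 1 or 3 of parental cells or any of sgCON (adjusted p = 0.0561 to 0.207). The call for E2F5 was also lost with GC content taken out, and it held in 6 of 16 alternative fits. YAPKO2 in DMSO had 2 higher and 5 lower, among 20% and 17.8%, and YAPKO1 in DMSO had 3 higher and 1 lower, among 14.8% and 12.4%, and all 3 comparisons share the parental libraries. E2F8 was lower in YAPKO2 (-1.40 ± 0.16, adjusted p = 2.63e-06) and in YAPKO1 (-1.25 ± 0.16, adjusted p = 1.45e-05), and E2F2 was higher, by 0.99 ± 0.14 (adjusted p = 3.11e-05) in YAPKO2 and 0.70 ± 0.14 (adjusted p = 0.00126) in YAPKO1. The control line with its scrambled guide thus differed from parental cells in E2F8 as the knockout lines did. In YAPKO2, CCNE2 stood at -1.56 ± 0.43 (adjusted p = 0.00872), a call lost without replicate 2 of YAPKO2 (adjusted p = 0.0509) and with the GC trend as a covariate (-0.39, adjusted p = 0.0865). E2F7 stood at -0.63 ± 0.18 (adjusted p = 0.0103), lost without replicate 1 of parental cells (adjusted p = 0.0626) and with that covariate (-0.34, adjusted p = 0.151). The other calls were E2F5, higher by 0.50 ± 0.11 in YAPKO2 (adjusted p = 0.00258), E2F6, higher by 0.25 ± 0.08 in YAPKO1 (adjusted p = 0.0316), and E2F3 and CCNE1, lower by -0.30 ± 0.11 and -0.34 ± 0.13 in YAPKO2 (adjusted p = 0.0456 and 0.0472). Each of E2F3, E2F6 and CCNE1 lost its call without 4 or 5 of the 6 libraries: E2F3 without replicate 2 or 3 of either group (adjusted p = 0.0845 to 0.208), E2F6 without replicate 1 or 2 of either group (0.0753 to 0.112), and CCNE1 without any parental replicate or replicate 1 or 3 of YAPKO2 (0.0843 to 0.126). Of 16 alternative fits, the call held in 4 for E2F3, 10 for E2F6 and 8 for CCNE1. For E2F3 it was lost under all 3 GC alternatives, quantile normalization, no scaling and no filter.

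Of the genes that E2F factors act with, 1 of 2 measured dimer partners fell with trametinib in YAPKO2, and TFDP2 was not called. Of all genes, 11.5% fell with trametinib in YAPKO2, 3.88% in YAPKO1 and 2.94% in sgCON. The dimer partner gene TFDP1 had 40.4, 37.6 and 33.8 FPKM in YAPKO2 in trametinib, against 74.2, 75.9 and 79.4 in YAPKO2 in DMSO, and fell by 1.03 ± 0.08 on the log2 scale (adjusted p = 1.56e-07). It had 59.2, 55.6 and 57.9 in YAPKO1 in trametinib, against 69.5, 67.8 and 77.8 in YAPKO1 in DMSO, and 69.1, 71.8 and 70.5 in sgCON in trametinib, against 71.6, 70.2 and 65.5 in sgCON in DMSO. It fell in YAPKO1 too, by 0.31 ± 0.08 (adjusted p = 0.024), and in sgCON the ranges overlapped. Of the 3 pocket proteins 1 fell with trametinib in YAPKO2, RBL1 by 0.79 ± 0.19 (adjusted p = 0.00613). RB1 had 14.4, 5.53 and 23.2 in YAPKO2 in trametinib and 17.9, 12.2 and 17.3 in YAPKO2 in DMSO, 17.4, 20.9 and 15.7 in YAPKO1 in trametinib and 23.5, 22.0 and 12.4 in YAPKO1 in DMSO, 21.1, 23.1 and 23.9 in sgCON in trametinib and 20.8, 24.4 and 21.2 in sgCON in DMSO, and 25.6, 27.7 and 23.6 in parental cells. It was not called for trametinib in any line.

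Of 8 measured genes for CDK2, its activators and its adaptors, 0 rose and 5 fell with trametinib in YAPKO2, with a median of -0.66. They were CKS2 by 1.29 ± 0.10, CCNA2, the gene for cyclin A2, by 1.13 ± 0.13, CDC25A, a phosphatase that activates CDK2, by 1.06 ± 0.13, CKS1B by 0.73 ± 0.08 and CDK2 itself by 0.59 ± 0.12. In YAPKO1 and in sgCON 1 of the 8 fell, CKS2, by 0.72 ± 0.10 and 0.54 ± 0.10. With GC content taken out, 6 fell in YAPKO2, 5 in YAPKO1 and 3 in sgCON, among 15.8%, 7.93% and 5.18% of all genes. Without the spline those shares were 11.5%, 3.88% and 2.94%. Of 9 ubiquitin ligase subunits that act on cyclin E or E2F1, 1 rose and 4 fell in YAPKO2: FBXW7, which targets cyclin E for degradation, rose by 0.42 ± 0.13, and CCNF, CDC20, SKP2 and CUL1 fell by 0.76 ± 0.19, 0.75 ± 0.22, 0.71 ± 0.08 and 0.44 ± 0.10. Of 7 genes of the MuvB core and its activators, 1 rose, LIN37 (0.72 ± 0.24), and 4 fell, MYBL2 by 0.99 ± 0.22, FOXM1 by 0.64 ± 0.15, LIN52 by 0.41 ± 0.12 and RBBP4 by 0.25 ± 0.07. With GC content taken out 0 rose and 3 fell, among 12.5% and 15.8% of all genes. In sgCON FOXM1 rose by 0.68 ± 0.15 (adjusted p = 0.0104).

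Upstream of the E cyclins, CDKN1A was lower in both knockout lines than in sgCON, in trametinib and in DMSO. CDKN1A, the gene for p21, an inhibitor of cyclin E with CDK2, had 82.4, 100 and 59.5 FPKM in YAPKO2 in trametinib and 87.5, 99.0 and 97.0 in YAPKO2 in DMSO. It had 82.2, 71.5 and 78.8 in YAPKO1 in trametinib and 144, 148 and 201 in YAPKO1 in DMSO. In sgCON it had 343, 327 and 341 in trametinib and 394, 398 and 378 in DMSO, and in parental cells 129, 114 and 127. Thus sgCON lay above the knockout lines and above parental cells in every library. CDKN1A was lower than in sgCON by -2.04 ± 0.15 in YAPKO2 and by -1.26 ± 0.15 in YAPKO1 in DMSO, and fell with trametinib in YAPKO1 by 1.07 ± 0.15. CCND1, a D cyclin, had 68.1, 62.4 and 69.1 in YAPKO2 in trametinib, against 99.9, 102 and 83.6 in YAPKO2 in DMSO, and fell by 0.51 ± 0.10 (adjusted p = 0.0012). It had 112, 114 and 94.5 in YAPKO1 in trametinib and 84.7, 84.5 and 97.1 in YAPKO1 in DMSO, 103, 94.1 and 96.7 in sgCON in trametinib and 85.5, 80.5 and 85.3 in sgCON in DMSO, and 223, 254 and 236 in parental cells. Of 4 measured D cyclin and kinase genes 2 fell in YAPKO2 by limma, and 0 were called in YAPKO1 or sgCON. At an unadjusted p under 0.05, limma put 1 of the 4 up with trametinib in YAPKO1 and 1 up in sgCON. At that limit 1 was down in YAPKO1 and 0 in sgCON. Among 6 measured CDK inhibitors 0 rose and 1 fell in YAPKO2, CDKN2D by 0.80 ± 0.21. The share of all genes called lower with trametinib was 11.5% in YAPKO2, 3.88% in YAPKO1 and 2.94% in sgCON.

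Genes downstream were read from a list of 52 E2F targets of DNA replication, 51 of them measured. With trametinib 0 rose and 47 fell in YAPKO2 by limma, 0 rose and 6 fell in YAPKO1, and 1 rose and 0 fell in sgCON, with median log2 differences of -0.88, -0.23 and 0.03, beside -0.01, -0.01 and 0 over all genes. With GC content taken out 51 fell in YAPKO2, 13 in YAPKO1 and 0 in sgCON, where 3 rose. Of all genes, 11.5% fell in YAPKO2, 3.88% in YAPKO1 and 2.94% in sgCON. With GC content taken out these shares were 15.8%, 7.93% and 5.18%, and 4.58% rose in sgCON. MCM10 fell by 1.27 ± 0.16, CLSPN by 1.25 ± 0.28 and DSCC1 by 1.20 ± 0.22 in YAPKO2. The response of YAPKO2 minus that of sgCON was lower for 36 of the 51, and that of YAPKO2 minus YAPKO1 for 16, among 3.03% and 0.59% of all genes. Of 30 genes of G2 and M phase, which the MuvB complex controls in large part, 0 rose and 23 fell with trametinib in YAPKO2 (median -0.84), 0 and 5 in YAPKO1 (median -0.36) and 0 and 0 in sgCON (median -0.05; limma, 1 higher and 1 lower at an unadjusted p under 0.05). In DMSO YAPKO2 against sgCON had 6 of the replication genes higher and 6 lower, with a median of 0. Of all genes, 14.1% were higher and 13.1% lower there, so 6 of 51 each way is near the share over all genes.

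The genes most like each member in pattern were taken as the 2 with the highest Pearson r of log2 values over the 21 libraries, among 15500 candidates, as a description of libraries that share group and GC trend. For E2F1 they were MCM7 (0.933) and ASF1B (0.93), for E2F2 SAPCD2 (0.93) and PPIF (0.92), and for E2F3 KIF23 (0.935) and FANCI (0.929). E2F4 ran most like ZNF511 (0.921) and THOP1 (0.904), and these values were 0.495 and 0.70 with GC content taken out. E2F5 ran most like TNFAIP6 (0.884) and AZIN1 (0.86), and E2F6 most like CHAC2 (0.929) and FABP5 (0.874). E2F7 ran most like KITLG (0.928) and IL17RB (0.919), E2F8 most like ELN (0.944) and FSTL1 (0.937), CCNE1 most like LINC01583 (0.929) and SEC24D (0.928), and CCNE2 most like CDC7 (0.975).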

How the data were processed

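Total RNA was extracted with a column kit and sequenced from stranded libraries depleted of ribosomal RNA, per the labels' protocols, and treatment began 24 h after plating. The authors deposited FPKM values for 57820 genes in 21 columns, made with STAR 2.4.2 and RSEM 1.3.0 on hg19, per the submitters' processing notes. Whether strand was used in counting is not given in the sources used here. A second deposited table was checked to be the same values divided by 1 factor per library, from 0.927 to 1.07. The parental libraries were taken from the columns headed only with DMSO, which match no other sample.

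The calibrated libraries were scaled by the median, over genes, of each value's ratio to the geometric mean of that gene. Genes with at least 1 FPKM in at least 3 libraries were kept, 16092 in all. On log2(FPKM + 0.5), limma 3.58.1 (R 4.3.3) fitted a mean per group over all 21 libraries, with eBayes and a trend, two-sided, with Benjamini-Hochberg adjustment over all genes in each of 15 comparisons. The pseudocount of 0.5 understates changes of low genes. The fit was tested on simulated data with known changes. The simulated noise was drawn for each gene apart, so a GC trend shared by the genes of a library was not covered. Transcript GC content came from GENCODE v29 (GRCh38) for 15522 tested genes (96.5%). A spline of 5 degrees of freedom on GC content, the GC trend as a covariate, and leaving out the library farthest in GC trend from its group median where over 0.4 (4 libraries) were chosen after seeing the data. Also tried were leaving out each library, a replicate block, only the groups compared, quantile normalization, pseudocounts of 0.1 and 1, and leaving out the scaling or the filter.

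All members are described. The named genes of each of 16 lists are up to 4 called genes with the largest change, and the remaining called genes of short lists were named after their values were seen. A few genes that these rules name are not reported here. Members and lists were chosen with earlier results of these data known.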

Additional observations from a re-analysis of the deposited data

Results flagged for a closer look

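For 4 of the 10 members the trametinib response of YAPKO2 differed from that of sgCON by limma's test of the difference of differences, fitted over all 21 libraries. E2F2 had a response difference of -1.27 ± 0.20 on the log2 scale, E2F7 of -0.92 ± 0.25, E2F1 of -0.82 ± 0.20 and E2F3 of -0.71 ± 0.16. For E2F2 and E2F3 the call held in all 22 alternatives run, with adjusted p up to 0.0132 and 0.0489. For E2F1 it held in 18 and for E2F7 in 9 of 22. In each case the members stood lower with trametinib in YAPKO2 and higher, without a call, in sgCON. The GC trend of the libraries, from -0.25 to 1.34 in YAPKO2 in trametinib, 0.09 to 0.62 in YAPKO2 in DMSO, -0.28 to -0.15 in sgCON in trametinib and -0.48 to -0.38 in sgCON in DMSO, moved with these groups. With the spline on GC content taken out, the differences were -1.33 ± 0.12 for E2F2, -0.89 ± 0.20 for E2F7, -0.87 ± 0.10 for E2F1 and -0.68 ± 0.14 for E2F3, all called.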

How the results depend on the processing

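Here the libraries apart are the farthest library in GC trend of each of 4 groups. Of the 49 member results called at an adjusted p under 0.05, 48 were still called with a pseudocount of 0.1, 49 with 1, 38 with no filter, 39 with no scaling, 45 under quantile normalization, 25 with only the groups compared, and 46 under each of the 3 GC alternatives, which added 26, 26 and 13 calls. Leaving out 1 library gave 318 values, of which 241 were still called. None of these called results changed sign. Counts of members called moved as follows; the cause was not tested. For trametinib against DMSO in YAPKO2 (6 called) only the groups compared gave 1. In YAPKO1 (3) no scaling gave 1, only the groups compared 0, and leaving out a library 1 to 3. In sgCON (1) quantile normalization gave 0, only the groups compared 3, leaving out a library 0 to 1, the GC spline 2, the GC covariate 5 and leaving out the libraries apart 3. For YAPKO2 against sgCON in DMSO (3) the GC spline gave 5. For YAPKO1 against sgCON in DMSO (2) no filter gave 0, no scaling 1, only the groups compared 0, leaving out a library 0 to 1 and the GC spline 4, and in trametinib (3) the spline gave 7 and the covariate 6. The response of YAPKO2 minus that of sgCON (4) gave 2 with only the groups compared, 2 to 5 leaving out a library and 7 with the spline. That of YAPKO1 minus sgCON (0) gave 2 with the spline, 2 with the covariate and 1 without the libraries apart, and that of YAPKO2 minus YAPKO1 (0) gave 2 and 2 with spline and covariate. For YAPKO2 against YAPKO1 in DMSO (1) no filter, no scaling and only the groups compared gave 0, leaving out a library 0 to 1, and the 3 GC alternatives 2 each, and in trametinib (6) only the groups compared gave 0 and leaving out a library 3 to 6. For sgCON against parental (2) no filter, no scaling and the spline gave 1, and leaving out a library 1 to 2. The sign of E2F4, called in no comparison, turned. Leaving out a library gave -0.19 to 0.02 for trametinib in YAPKO1, -0.22 to 0.01 for trametinib in YAPKO2, -0.05 to 0.03 for YAPKO1 and -0.18 to 0.06 for YAPKO2 against sgCON in trametinib, and without the libraries apart these were 0.07, 0.05, 0.03 and 0.06. For YAPKO2 against parental E2F4 was -0.03 with the spline, and E2F1 was -0.26 (adjusted p = 0.00684) with the spline and -0.23 (adjusted p = 0.0437) with the covariate, against 0.10 without them.

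The replicate numbers gave no clear sign of pairing in these values. Of 63 same-numbered pairs of libraries 4 had deviations correlated above 0.1 (-0.551 to 0.361), and 2 of 21 libraries correlated best with their own number. Pairs above 0.1 included trametinib and DMSO of YAPKO1 at replicates 2 (0.168) and 3 (0.228) and of YAPKO2 at replicate 2 (0.361). Replicate 1 gave -0.125 in YAPKO1 and -0.053 in YAPKO2, and replicate 3 of YAPKO2 0.078. Pairs of unlike number between the same groups reached 0.229 in YAPKO1 and 0.327 in YAPKO2. These correlations cannot tell whether same-numbered cultures were grown together, since the GC trend also enters these deviations. With the replicate block 39 of the 49 results were still called, and members called were 0 for YAPKO1 against sgCON in DMSO, 0 for YAPKO2 against YAPKO1 in DMSO and 1 for sgCON against parental. FPKM carry no counts, so what depth limits is unknown.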
